A study of Homo sapiens with 15 samples.

Results

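The mRNAs described here encode 10 proteins of the unfolded protein response (UPR) and of protein folding in the endoplasmic reticulum (ER), namely XBP1, HERPUD1, DNAJB9, DNAJC3, MANF, SDF2L1, HSPA5, PDIA4, HSP90B1 and CALR. They were taken by gene symbol from a table of 12261 genes, in which each gene is represented by 1 Ensembl transcript, and all 10 were found there. All 10 also passed the filter on low values used for the tests, both in total RNA and in purified RNA. In total RNA, DNAJB9 passed only through its libraries with UPF1 isoform 1, where it was highest, so this filter and its test are not independent. In cells expressing UPF1 isoform 1, 7 of the 10 mRNAs were higher than in cells expressing GFP, as were 8.38% of all 9325 genes tested, and 2 of the 10 passed the test when the replicate number was left out of the fit. XBP1 and HERPUD1 changed most, at 2.28 and 2.31 times their level in GFP cells.

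The cells were HEK-293 Trex, an established human embryonic kidney line whose added genes are switched on by doxycycline. The UPF1-1 line expressed CLIP-tagged UPF1 isoform 1, the UPF1-2 line CLIP-tagged UPF1 isoform 2, and the GFP line GFP, and all of them received 200 ng/mL doxycycline. Total RNA was sequenced from the 3 lines, and RNA that came down with affinity-purified CLIP-UPF1 (the IP libraries) from the 2 UPF1 lines, with 3 libraries in each of the 5 groups. Each protein was expressed in a line of its own, so a difference between the lines and an effect of the protein cannot be told apart. No purification from GFP cells was analysed here, and the labels do not say whether the replicates were separate cultures, so p-values measure the spread between these libraries.

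UPF1 is an RNA helicase at the centre of nonsense-mediated decay, a pathway that degrades mRNAs with premature stop codons and also a set of normal mRNAs. Its isoforms arise by alternative splicing and differ in the length of a regulatory loop on the helicase surface, which is longer in isoform 1. The UPR is the response to unfolded proteins in the ER and is started by the sensors IRE1, PERK and ATF6. IRE1 splices the XBP1 mRNA, which then encodes an active transcription factor, cleaved ATF6 enters the nucleus as a transcription factor, and PERK phosphorylates eIF2 alpha, which favours translation of ATF4. XBP1 and ATF6 induce chaperones and degradation factors of the ER, while ATF4 induces genes of amino acid metabolism and stress. Several mRNAs of the UPR are described as targets of nonsense-mediated decay, among them those of IRE1 and ATF4.

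Values are TPM as deposited, a transcript's abundance per unit of its length and of its library's total. UPF1, the induced gene, stood at 106, 94.5 and 186 TPM in the 3 UPF1-1 libraries of total RNA, at 68.9, 72.7 and 171 TPM in the UPF1-2 libraries, and at 3.24, 3.80 and 8.57 TPM in the GFP libraries. These values set the UPF1 lines apart from the GFP line, but the table holds 1 UPF1 transcript and so does not check which isoform a library expressed. The table does not give read totals. Its mean natural log of estimated counts corresponds to about 280 (DNAJB9) to 4515 (XBP1) estimated counts a library for these 10 mRNAs, so the counting error is largest for DNAJB9. The 12261 genes held 12.2% to 19.0% of all TPM in the total RNA libraries and 44.7% to 69.9% in the IP libraries, the rest belonging to transcripts not analysed here. Of 8 marker genes reported in HEK-293, only 4 were among the 12261 genes. Their summed level was 179 to 267 TPM in UPF1-1, 148 to 264 TPM in UPF1-2 and 159 to 237 TPM in GFP total RNA. Replicate 3 stood apart from replicates 1 and 2 in every group, so the replicate number was kept as a block in each fit, and for the 10 mRNAs, and for list counts that it moves by over 1.5 times, the result without replicate 3 is also given. In a bulk sample, fewer cells expressing a gene and less RNA per cell cannot be told apart.

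UPR genes carry short promoter elements, and these are shown because the 10 mRNAs do not share them evenly. The ER stress response element (ERSE) is bound by ATF6 together with NF-Y, ERSE-II by ATF6 and XBP1, and the C/EBP-ATF response element (CARE) by ATF4 with a partner. In RefSeq promoters (GRCh38.p14, 250 bases before to 50 after each start site; 12 promoters for the 10 genes, with 2 each for XBP1 and PDIA4), both strands were searched for ERSE as CCAAT, 9 bases of any kind (N) and CCACG, for ERSE-II as ATTGG, 1 such base and CCACG, and for CARE as TGATGNAAN; the patterns do not overlap one another in the windows shown. ERSE was found in 27 of 35116 promoters (0.0769%), ERSE-II in 19 (0.0541%) and CARE in 1268 (3.61%). The sequences below run 5′ to 3′ along the gene's own strand, with the element in capitals and 15 bases on each side.
XBP1, ERSE (chr22:28800588-28800636, minus strand): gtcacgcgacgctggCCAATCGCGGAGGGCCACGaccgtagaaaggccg
HSPA5, ERSE (chr9:125241376-125241424, minus strand): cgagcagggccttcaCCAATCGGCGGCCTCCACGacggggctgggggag
HSP90B1, distal ERSE (chr12:103930201-103930249, plus strand): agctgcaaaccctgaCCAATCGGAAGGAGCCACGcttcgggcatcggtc
HSP90B1, proximal ERSE, reversed (chr12:103930306-103930354, plus strand): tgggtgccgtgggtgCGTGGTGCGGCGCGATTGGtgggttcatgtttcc
CALR, ERSE, reversed (chr19:12938369-12938417, plus strand): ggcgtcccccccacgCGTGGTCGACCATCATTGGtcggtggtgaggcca
HERPUD1, ERSE-II (chr16:56932010-56932050, plus strand): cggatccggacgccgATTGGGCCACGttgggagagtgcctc
HERPUD1, CARE, reversed (chr16:56931950-56931988, plus strand): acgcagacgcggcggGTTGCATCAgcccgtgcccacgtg
SDF2L1, ERSE-II, reversed (chr22:21642099-21642139, plus strand): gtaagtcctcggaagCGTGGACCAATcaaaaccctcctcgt
The windows of DNAJB9, DNAJC3, MANF and PDIA4 held none of the 3 letter patterns. A match is a description of letters and not a measured binding site, and no binding of these factors was measured.

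The first comparison asked how total RNA of the UPF1-1 line differed from that of the GFP line. Of the 10 mRNAs, 7 were higher in UPF1-1 cells and none was lower, against a background of 8.38% of the 9325 genes tested that were higher and 7.79% that were lower (limma, adjusted p under 0.05). Their median log2 difference was 0.55, beside -0.01 over all genes tested. With library medians set equal, 6 of the 10 had all 3 UPF1-1 libraries above all 3 GFP libraries, as did 7.4% of all genes. Log2 differences are of TPM + 0.5 after library medians were set equal, which understates the change of mRNAs near 1 TPM. Without the replicate block, 2 of the 10 passed the test (XBP1 and HERPUD1), against 0.118% of all genes that were higher, and with neither the block nor equal medians none did (0.0107% of all genes). Without replicate 3, 8 of the 10 passed, and 9 had an unadjusted p under 0.05, beside 33.3% of all genes.

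**Figure D1:**
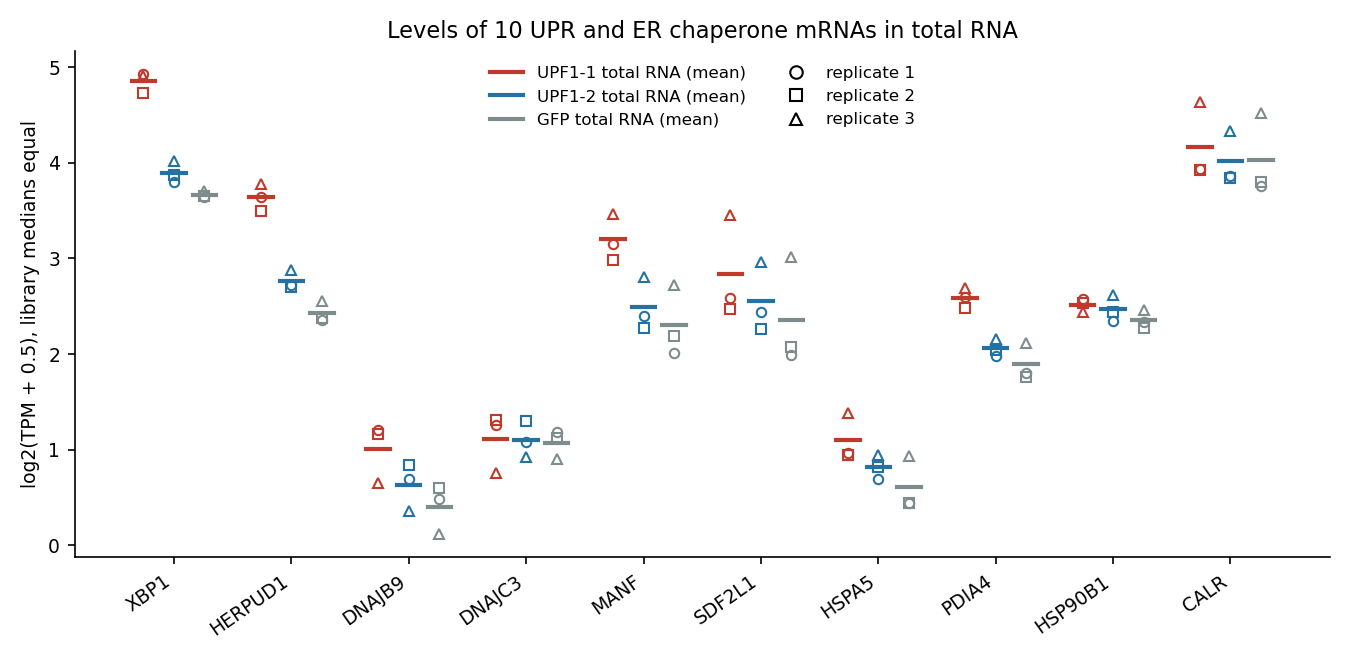
Level of each mRNA in total RNA as log2(TPM + 0.5) with library medians set equal, for the UPF1-1, UPF1-2 and GFP lines from left to right. Points are libraries, shaped by replicate number, and bars are means over 3 libraries. XBP1, HERPUD1, MANF, HSPA5 and PDIA4 of UPF1-1 lie above every library of the other lines, HSPA5 only narrowly. DNAJC3, HSP90B1 and CALR of all 3 lines lie among each other.

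XBP1, the transcription factor made when IRE1 splices its mRNA, stood at 28.7, 24.2 and 37.0 TPM in UPF1-1, at 10.4, 12.04 and 23.3 TPM in UPF1-2 and at 10.1, 10.8 and 15.3 TPM in GFP total RNA. Every UPF1-1 library was above every library of the other lines. The log2 difference of UPF1-1 over GFP was 1.19 ± 0.07 (SE; adjusted p = 2.7e-05), a 2.28-fold level with a 95% interval of 2.06 to 2.53. The table holds 1 transcript for the gene, and whether it is the spliced or the unspliced form was not determined here. A change in the amount of XBP1 mRNA and a change in its splicing therefore cannot be told apart in these values.

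HERPUD1, an ER membrane protein that helps to organise the degradation complex for misfolded proteins, stood at 11.5, 10.0 and 16.6 TPM in UPF1-1, at 4.66, 5.05 and 10.2 TPM in UPF1-2 and at 3.84, 4.19 and 6.62 TPM in GFP total RNA. The lowest UPF1-1 library was above the highest GFP library but below the highest UPF1-2 library, which is replicate 3. The log2 difference over GFP was 1.21 ± 0.06 (SE; adjusted p = 1.3e-05), or 2.31-fold (95% interval 2.12 to 2.53). It was the only one of the 10 whose promoter window held both an ERSE-II and a CARE. The differences for the 3 replicate numbers were 1.29, 1.12 and 1.22.

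DNAJB9 (ERdj4) and DNAJC3 (p58IPK) are J-domain co-chaperones of the ER. DNAJB9 binds misfolded proteins and represses IRE1 in the resting ER, and DNAJC3 assists HSPA5 and was first described as an inhibitor of eIF2 alpha kinases. DNAJB9 was low, at 1.71, 1.58 and 1.46 TPM in UPF1-1, 0.77, 1.03 and 1.37 TPM in UPF1-2 and 0.68, 0.87 and 0.81 TPM in GFP total RNA. All UPF1-1 libraries were above all GFP libraries, with a log2 difference of 0.61 ± 0.07 (SE; adjusted p = 0.0016). No GFP library reached 1 TPM, and DNAJB9 passed the filter on low values in total RNA only through its UPF1-1 libraries. DNAJC3 stood at 1.80, 1.82 and 1.60 TPM in UPF1-1, 1.15, 1.60 and 2.27 TPM in UPF1-2 and 1.42, 1.47 and 1.76 TPM in GFP total RNA, and the groups overlapped. Its log2 difference of UPF1-1 over GFP was 0.04 (95% interval -0.16 to 0.24; adjusted p = 0.795).

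MANF and SDF2L1 are small soluble ER proteins of the folding machinery: MANF binds HSPA5 and can be secreted as a neurotrophic factor, and SDF2L1 works with J-domain proteins of the ER. MANF stood at 8.02, 6.85 and 13.2 TPM in UPF1-1, 3.61, 3.64 and 9.78 TPM in UPF1-2 and 2.91, 3.62 and 7.46 TPM in GFP total RNA. Replicate 3 was the highest library in each line, and UPF1-1 was the highest line at each replicate number. Its log2 difference over GFP was 0.89 ± 0.08 (SE; adjusted p = 0.00061), or 1.86-fold. SDF2L1 stood at 5.23, 4.65 and 13.2 TPM in UPF1-1, 3.75, 3.61 and 11.0 TPM in UPF1-2 and 2.86, 3.30 and 9.29 TPM in GFP total RNA. Here the step of replicate 3 was larger than the step between lines, and the groups overlapped. The log2 difference over GFP, 0.47 ± 0.09 (SE; adjusted p = 0.0101), was 0.59, 0.40 and 0.44 for the 3 numbers and missed the threshold without replicate 2 (adjusted p = 0.079).

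HSPA5 (BiP), the ER Hsp70 that holds the 3 sensors inactive, stood at 1.37, 1.29 and 2.76 TPM in UPF1-1, 0.77, 1.00 and 2.32 TPM in UPF1-2 and 0.65, 0.73 and 1.82 TPM in GFP total RNA. UPF1-1 was highest at each replicate number, and with library medians equal all its libraries were above the GFP libraries. The margin was narrow, with 0.946 in the lowest UPF1-1 library and 0.938 in the highest GFP library on the log2 scale. Its log2 difference over GFP was 0.49 ± 0.08 (SE; adjusted p = 0.0067), which missed the threshold without replicate 2 (adjusted p = 0.069). PDIA4 (ERp72), a protein disulfide isomerase, stood at 5.28, 4.69 and 7.58 TPM in UPF1-1, 2.59, 3.02 and 6.02 TPM in UPF1-2 and 2.44, 2.57 and 4.75 TPM in GFP total RNA. With library medians equal, no UPF1-1 library overlapped those of the other lines. Its log2 difference over GFP was 0.70 ± 0.07 (SE; adjusted p = 0.00075), or 1.62-fold.

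HSP90B1 (GRP94) is the ER Hsp90, and CALR (calreticulin) is a lectin chaperone that also stores calcium. HSP90B1 stood at 5.22, 4.88 and 6.25 TPM in UPF1-1, 3.48, 4.13 and 8.51 TPM in UPF1-2 and 3.75, 3.88 and 6.16 TPM in GFP total RNA. CALR stood at 14.2, 13.7 and 30.6 TPM in UPF1-1, 10.9, 11.8 and 29.0 TPM in UPF1-2 and 10.9, 12.1 and 27.3 TPM in GFP total RNA. For both, the 3 lines overlapped. The log2 difference of UPF1-1 over GFP was 0.16 for HSP90B1 (95% interval -0.03 to 0.34; adjusted p = 0.214) and 0.14 for CALR (95% interval -0.01 to 0.29; adjusted p = 0.181). HSP90B1 passed the test without replicate 3, at 0.25 (adjusted p = 0.049). Both promoters hold an ERSE, as do those of HSPA5 and XBP1, so the 4 mRNAs whose promoters hold the element spanned log2 differences of 0.14 to 1.19. Pseudogenes of HSPA5, HSP90B1 and XBP1 exist, and reads shared with such copies could make the values of these 3 mRNAs less certain. Such sharing was not tested.

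The second comparison set total RNA of the UPF1-2 line against the same GFP libraries. None of the 10 mRNAs passed the test (limma), where 0.279% of all genes were higher and 0.0965% lower. At an unadjusted p under 0.05 there were 6 of the 10, beside 12.1% of all genes, and the authors' sleuth test called none (0.0163% of genes). The median log2 of the 10 differences was 0.19, beside -0.02 over all genes. The 10 were read in the same libraries, so they are not separate observations. The log2 difference was 0.33 for HERPUD1 (95% interval 0.21 to 0.46; adjusted p = 0.056), 0.23 for XBP1 (0.08 to 0.38; adjusted p = 0.216) and 0.23 for DNAJB9 (0.06 to 0.40; adjusted p = 0.263). The differences of HERPUD1 at the 3 replicate numbers were 0.36, 0.32 and 0.32, and it passed the test with upper quartiles equal (adjusted p = 0.037) or among genes of at least 5 TPM (adjusted p = 0.019). The other 7 lay between -0.01 for CALR and 0.21 for HSPA5. With library medians equal, XBP1 and HERPUD1 had all UPF1-2 libraries above all GFP libraries, as did 2.81% of all genes.

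**Figure D2:**
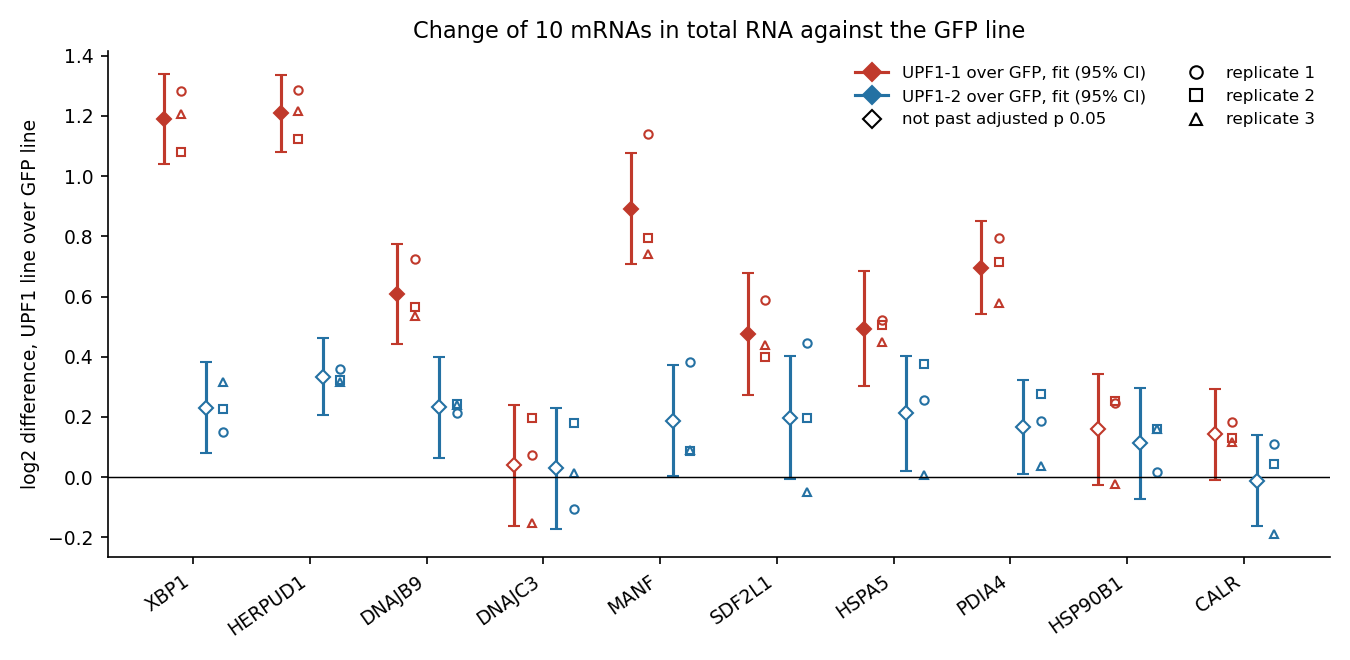
Log2 difference of each UPF1 line over the GFP line in total RNA. Diamonds are fitted values with 95% intervals, filled where the adjusted p was under 0.05, and small points are the differences at each replicate number. In the UPF1-1 line the filled values run from 0.47 (SDF2L1) to 1.21 (HERPUD1), and in the UPF1-2 line no value is filled.

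The UPF1 lines were then compared with each other, which tests whether the change against GFP differed between the isoforms. Of the 10 mRNAs, 5 were higher in UPF1-1 than in UPF1-2 and none was lower, against 5.49% and 4.02% of all genes. UPF1 itself was also higher in UPF1-1 than in UPF1-2 total RNA, by 0.31 on the log2 scale or 1.24-fold (adjusted p = 0.036), and its part in these differences was not tested. The log2 difference was 0.96 ± 0.07 for XBP1 (SE; adjusted p = 0.00049), 0.88 ± 0.06 for HERPUD1 (adjusted p = 0.00046), 0.71 ± 0.08 for MANF (adjusted p = 0.0037), 0.53 ± 0.07 for PDIA4 (adjusted p = 0.0054) and 0.38 ± 0.07 for DNAJB9 (adjusted p = 0.0198). These 5 were higher in UPF1-1 at each of the 3 replicate numbers, as were HSPA5, SDF2L1 and CALR, which did not pass. With library medians equal, 5 of the 10 (XBP1, HERPUD1, MANF, HSPA5 and PDIA4) had all UPF1-1 libraries above all UPF1-2 libraries, as did 6.2% of all genes. For HSPA5 the margin was narrow, with 0.946 in the lowest UPF1-1 library and 0.944 in the highest UPF1-2 library on the log2 scale. HSPA5 (0.28, 95% interval 0.09 to 0.47; adjusted p = 0.069) and SDF2L1 (0.28, 0.07 to 0.48; adjusted p = 0.085) did not pass, nor did CALR (0.15, 0.00 to 0.31). The interval of the difference was -0.14 to 0.23 for HSP90B1 and -0.19 to 0.21 for DNAJC3. The calls rested on the block: without it none of the 10 passed, nor did any other gene higher in UPF1-1 (0.0%), with 4 of the 10 at an unadjusted p under 0.05, and the adjusted p was 0.051 for XBP1 and 0.090 for HERPUD1. With the block but without equal medians 3 of the 10 passed, beside 0.794% of all genes. Without replicate 2 only XBP1 and HERPUD1 passed, and DNAJB9 did not pass when any 1 of the replicate numbers was left out.

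The authors' deposited table gives a sleuth test of the same comparisons. In it, XBP1 (q = 2.7e-07), HERPUD1 (q = 5.0e-07) and MANF (q = 0.0085) had q under 0.05 for UPF1-1 over GFP, where 0.245% of its genes were higher. For UPF1-1 against UPF1-2, XBP1 (q = 0.00048) and HERPUD1 (q = 0.0029) had q under 0.05 in the authors' deposited table, where 0.098% of genes were higher in UPF1-1. PDIA4 (q = 0.051) and DNAJB9 (q = 0.064) were just above that threshold for UPF1-1 over GFP in the authors' deposited table. XBP1 and HERPUD1 were called for UPF1-1 over GFP by the blocked fit, by the fit without a block but with equal medians, and by the authors' test. All of these tests use the same UPF1-1 and GFP libraries. With neither the block nor equal medians, XBP1 and HERPUD1 did not pass.

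The 10 mRNAs did not vary alike. Over the 9 total RNA libraries, with library medians and replicate numbers taken out, the correlation of each mRNA with the mean of the other 9 was 0.99 for PDIA4, 0.98 for DNAJB9, 0.97 for HERPUD1, 0.96 for MANF, 0.95 for XBP1, 0.94 for HSPA5 and 0.87 for SDF2L1. It was 0.68 for CALR, 0.62 for HSP90B1 and 0.24 for DNAJC3. These are descriptions over libraries that share lines and depth, so the difference between the lines enters them. The genes most like the mean profile of the 10, among the 3249 genes compared, were ZFAS1 (r = 0.990), PPP1R15A (0.986), C19orf10 (0.985; current symbol MYDGF), CSTF1 (0.985) and SELK (0.981; current symbol SELENOK). ZFAS1 is a non-coding RNA that hosts small nucleolar RNAs, PPP1R15A (GADD34) directs the dephosphorylation of eIF2 alpha, CSTF1 is a subunit of the 3′ end cleavage machinery, and SELK is a selenoprotein of the ER membrane.

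Replicate 3 moved the mRNAs in opposite directions. Relative to the mean of replicates 1 and 2, with library medians equal, SDF2L1 was higher by 0.93 in UPF1-1, 0.61 in UPF1-2 and 0.98 in GFP on the log2 scale, and CALR by 0.71, 0.48 and 0.74. MANF was higher by 0.39, 0.47 and 0.62 in the same order of lines. DNAJB9 was lower, by -0.54 in UPF1-1, -0.41 in UPF1-2 and -0.43 in GFP, and DNAJC3 by -0.54, -0.27 and -0.25. These shifts were shared by the lines, and what set replicate 3 apart was not tested.

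In the order of TPM, XBP1 was the highest of the 10 in UPF1-1 total RNA, at 29.9 ± 6.5 TPM (SD, n = 3), followed by CALR at 19.5 ± 9.6. CALR was the highest in UPF1-2 (17.2 ± 10.2) and GFP (16.8 ± 9.1), followed by XBP1 at 15.2 ± 7.0 in UPF1-2 and 12.1 ± 2.8 in GFP. HERPUD1, MANF, SDF2L1, PDIA4 and HSP90B1 came next in each line. HSPA5, DNAJC3 and DNAJB9 were the lowest in each line, between 0.79 and 1.81 TPM on average. Most neighbours in this order overlapped in their range over libraries, and those that did not were HSP90B1 above HSPA5 in UPF1-1, XBP1 above HERPUD1 and PDIA4 above DNAJC3 in UPF1-2, and XBP1 above SDF2L1 and PDIA4 above DNAJC3 in GFP. Summed over the 10, the level was 95.6 ± 30.4 TPM in UPF1-1, 64.2 ± 34.3 in UPF1-2 and 54.8 ± 23.0 in GFP.

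Lists of related genes were then read for the same comparisons. Of 13 genes tested that the PERK and ATF4 branch induces, 8 were higher in UPF1-1 than in GFP cells and none was lower, against 8.38% and 7.79% of all genes, with a median log2 of 0.35. TRIB3, a pseudokinase that restrains ATF4, averaged 17.9 ± 2.4 TPM in UPF1-1 and 5.41 ± 0.86 TPM in GFP total RNA (SD, n = 3 each), a log2 difference of 1.55 (adjusted p = 7.0e-06). PPP1R15A, at 9.33 ± 5.86 and 3.46 ± 2.76 TPM in UPF1-1 and GFP, differed by 1.28 (adjusted p = 2.7e-05), and the transcription factor CEBPB, at 7.83 ± 2.27 and 3.0 ± 0.9 TPM, by 1.16 (adjusted p = 1.7e-05). TRIB3 (0.69, adjusted p = 0.0032) and CEBPB (0.46, adjusted p = 0.024) were also the 2 genes of this list that were higher in UPF1-2 than in GFP. Neither passed there without the block (adjusted p = 0.298 for TRIB3), and 1 gene of the list passed without replicate 3. Between the UPF1 lines 9 of the 13 were higher in UPF1-1, against 5.49% of all genes, led by PPP1R15A (0.92), TRIB3 (0.86) and ATF3 (0.80).

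**Figure D3:**
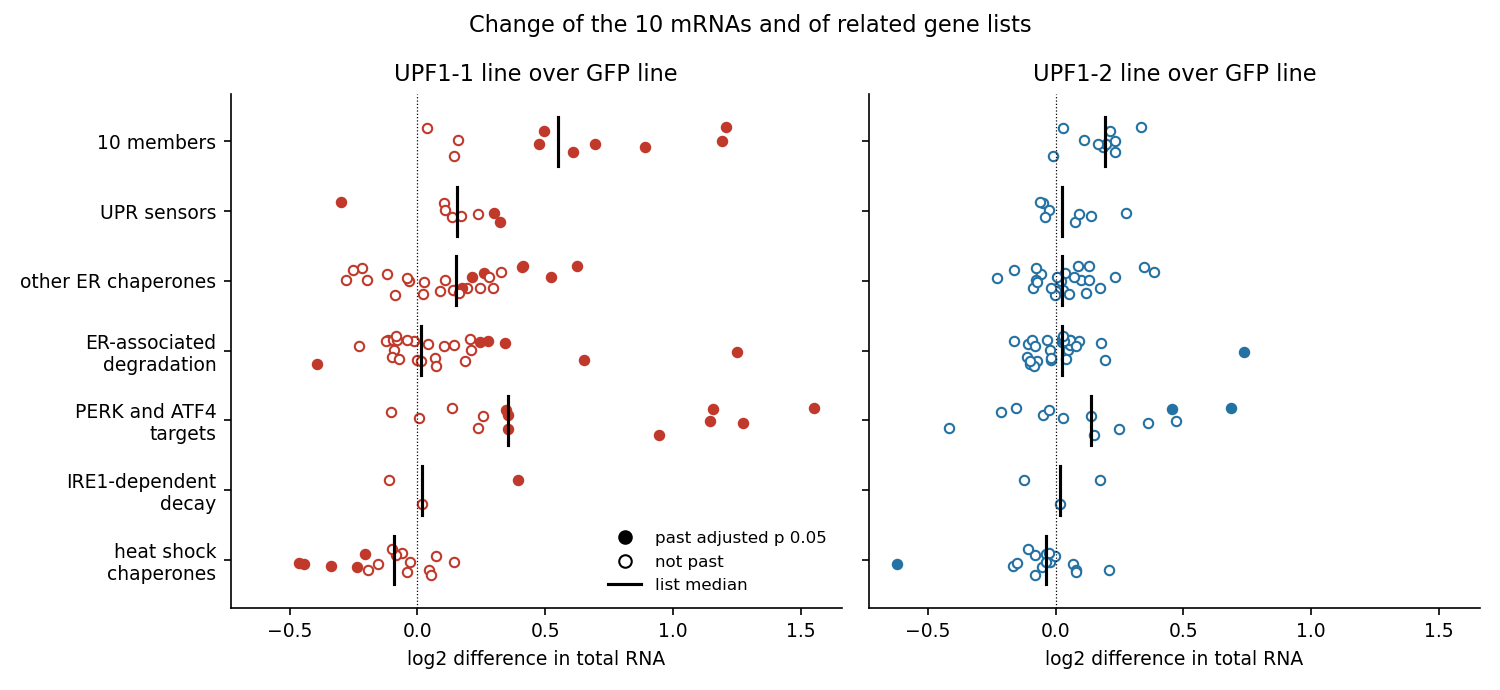
Log2 difference over the GFP line in total RNA for the 10 mRNAs and 6 lists of related genes, in the UPF1-1 line (left) and the UPF1-2 line (right). Each point is a gene, filled where the adjusted p was under 0.05, and the vertical bar is the list's median. The medians of the 10 mRNAs (0.55) and of the PERK and ATF4 targets (0.35) lie farthest to the right in the UPF1-1 line.

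Of 26 other ER chaperones and folding enzymes tested, 7 were higher in UPF1-1 than in GFP cells and none was lower, against 8.38% and 7.79% of all genes, with a median of 0.15. Without replicate 3, 5 of 22 were higher and 1 was lower. They were led by PPIB (0.63, adjusted p = 0.00071), the ER cyclophilin, which averaged 24.8 ± 3.8 TPM in UPF1-1 and 15.1 ± 4.0 TPM in GFP, and by the disulfide isomerases TXNDC5 (0.52, adjusted p = 0.0014) and PDIA6 (0.26, adjusted p = 0.017). Of 27 genes of ER-associated degradation, 5 were higher and 1 was lower, beside the same shares of all genes, with a median of 0.01. The ubiquitin ligase RNF5 (0.27) was among those higher and the conjugating enzyme UBE2G2 (-0.39) was lower; HM13 (1.25), VIMP (0.65) and DERL2 (0.34), named after their values were seen, were also higher. Of 8 UPR sensors and signalling genes, ATF4 (0.30, adjusted p = 0.0067) and, named after their values were seen, CREB3 (0.32) were higher and MBTPS2 (-0.30) lower, and none of the 6 tested without replicate 3 was lower. Of 3 targets of IRE1-dependent decay, ERGIC3 was higher (0.40, adjusted p = 0.0041).

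Chaperones outside the ER did not share this direction. Of 16 cytosolic and mitochondrial heat shock chaperones, none was higher in UPF1-1 than in GFP cells and 5 were lower, with a median of -0.09, beside 7.79% of all genes that were lower. HSP90AA1, the inducible cytosolic Hsp90, averaged 59.2 ± 15.7 TPM in UPF1-1 and 78.3 ± 28.9 TPM in GFP, a log2 difference of -0.46 (adjusted p = 0.0025). HSPA8, the constitutive Hsp70, differed by -0.34 (adjusted p = 0.023) and its co-chaperone DNAJA1 by -0.24 (adjusted p = 0.018), and HSPB1 (-0.44) and HSPA4 (-0.21), named after their values were seen, were the others. In UPF1-2 against GFP, 0.279% of all genes were higher and 0.0965% lower. Of the 27 degradation genes, 1 was higher there, HM13 (0.74), and of the 16 heat shock chaperones 1 was lower, HSPB1 (-0.62). Both were named after their values were seen. Neither passed without the block, and no heat shock chaperone was lower without replicate 3. No sensor, other ER chaperone or decay target passed the test in that comparison (limma), with 1 of 8, 3 of 26 and 1 of 3 at an unadjusted p under 0.05. Between the UPF1 lines, 5.49% of all genes were higher in UPF1-1 and 4.02% lower. Of 26 other ER chaperones, 5 were higher in UPF1-1, led by PPIB (0.54), TXNDC5 (0.45) and P4HB (0.26). The 1 that was lower was ERO1L (-0.38), named after its value was seen. Without replicate 3, 2 of these chaperones were higher and none was lower. Of 27 degradation genes, 3 were higher in UPF1-1 than in UPF1-2 and 1 was lower, UBE2G2 (-0.29). HM13 (0.52) and VIMP (0.46), named after their values were seen, were among those higher. Of 16 heat shock chaperones, 1 was lower, HSP90AA1 (-0.31), though none was without replicate 3. Without the block, TRIB3 and CEBPB were the 2 genes of these 6 lists that passed for UPF1-1 over GFP (adjusted p = 0.00077 and 0.0044).

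The last comparisons asked how strongly each mRNA was recovered with each UPF1 isoform, as IP over total RNA of the same line. Before library medians were set equal, the median gene was 2.56 higher on the log2 scale in IP than in total RNA of UPF1-1 and 2.53 higher in UPF1-2, so recovery is given relative to the median gene. On that scale 8 of the 10 mRNAs were lower in IP with UPF1-1 and 1 was higher, against 43.9% and 30.8% of the 11969 genes tested, and without equal medians these 8 turned to the other side of 0. With UPF1-2 8 were lower and none higher, against 44.2% and 31.5%, and these 8 likewise turned without equal medians. With library medians equal, the same counts of 8 had IP libraries all below the total RNA libraries, as did 35.3% of genes for UPF1-1 and 36.6% for UPF1-2, and DNAJC3 had all UPF1-1 IP libraries above, as did 21.8% of genes. The medians of the 10 were -1.15 with UPF1-1 and -1.38 with UPF1-2, beside -0.16 and -0.15 over all genes. These comparisons use the same total RNA libraries as the comparisons above.

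SDF2L1 was recovered least. It stood at 6.05, 5.00 and 12.8 TPM in IP and 5.23, 4.65 and 13.2 TPM in total RNA of UPF1-1, and at 4.91, 4.68 and 14.3 TPM in IP and 3.75, 3.61 and 11.0 TPM in total RNA of UPF1-2. In UPF1-2 it was higher in IP than in total RNA at each replicate number, and in UPF1-1 at 2 of the 3. Relative to the median gene it was lower by -2.48 ± 0.12 with UPF1-1 and -2.18 ± 0.12 with UPF1-2 on the log2 scale (SE; adjusted p = 6.7e-07 and 1.3e-06); without equal medians these values were 0.08 (adjusted p = 0.505) and 0.35 (adjusted p = 0.013). MANF (-1.77 with UPF1-1, -1.98 with UPF1-2), HSPA5 (-1.69, -1.68) and PDIA4 (-1.49, -1.62) were also lower, as were CALR (-1.17, -1.11) and HERPUD1 (-1.12, -1.14). HSP90B1 was at -0.74 with UPF1-1 and -1.09 with UPF1-2.

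XBP1 was recovered like the median gene. It stood at 161, 141 and 210 TPM in IP of UPF1-1 and 66.9, 68.6 and 102 TPM in IP of UPF1-2, the highest level of the 10 in both. Its log2 difference of IP over total RNA was -0.07 with UPF1-1 (95% interval -0.32 to 0.18; adjusted p = 0.586) and -0.13 with UPF1-2 (-0.38 to 0.12; adjusted p = 0.312). With a pseudocount of 0.1 TPM these were -0.26 and -0.32 and passed the test, and with a pseudocount of 1 TPM they were 0.13 and 0.06.

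**Figure D4:**
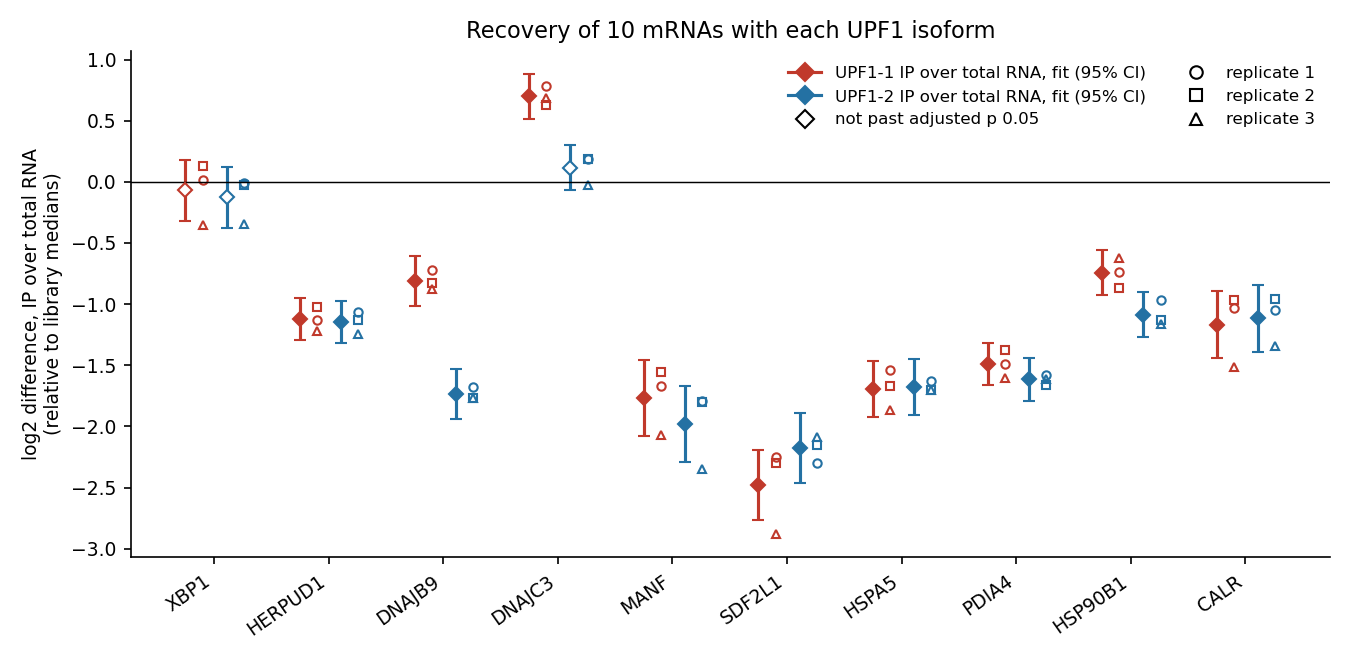
Log2 difference of IP over total RNA for each mRNA, relative to library medians, with UPF1-1 and UPF1-2. Diamonds are fitted values with 95% intervals, filled where the adjusted p was under 0.05, and small points are the differences at each replicate number. DNAJC3 lies above 0 with UPF1-1 and DNAJB9 differs most between the isoforms; without equal library medians the values below 0 would lie above it.

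DNAJC3 and DNAJB9, the J-domain proteins, were recovered more with UPF1-1 than with UPF1-2. IP levels alone do not give recovery, since they also carry the level in total RNA. DNAJC3 stood at 21.1, 18.2 and 23.8 TPM in IP of UPF1-1 and at 11.3, 13.0 and 14.4 TPM in IP of UPF1-2. Its log2 difference of IP over total RNA was 0.70 ± 0.08 with UPF1-1 (SE; adjusted p = 6.9e-05) and 0.12 with UPF1-2 (95% interval -0.07 to 0.30; adjusted p = 0.213). DNAJB9 stood at 6.82, 5.66 and 7.16 TPM in IP of UPF1-1 and at 1.98, 2.02 and 2.51 TPM in IP of UPF1-2. Its log2 difference was -0.81 ± 0.09 with UPF1-1 and -1.74 ± 0.09 with UPF1-2 (SE; adjusted p = 5.6e-05 and 8.1e-07), and without equal medians these were 1.75 and 0.79.

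The difference in recovery itself, UPF1-1 minus UPF1-2, passed the test for these 2 of the 10 mRNAs, against 4.43% of all genes that were higher and 6.27% that were lower. It was 0.93 ± 0.13 for DNAJB9 (SE; adjusted p = 0.015) and 0.96, 0.94 and 0.89 at the 3 replicate numbers. It was 0.58 ± 0.11 for DNAJC3 (SE; adjusted p = 0.022) and 0.60, 0.44 and 0.71 at the 3 numbers. HSP90B1 was at 0.34 (95% interval 0.08 to 0.60; adjusted p = 0.088), and the intervals of the other 7 held 0, from -0.30 for SDF2L1 to 0.21 for MANF. Neither call held without the block (adjusted p = 0.580 for DNAJB9 and 0.767 for DNAJC3), without equal medians, or without replicate 1 or 2, where the sizes were 0.92 and 0.93 for DNAJB9 and 0.58 and 0.66 for DNAJC3.

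The same lists were read for recovery, where 30.8% of all genes were higher and 43.9% lower with UPF1-1, and 31.5% higher and 44.2% lower with UPF1-2. The lists were not tested against one another. Of the targets of the PERK and ATF4 branch, 7 of 13 were higher and 2 lower in IP of UPF1-1 and 8 higher and 3 lower in IP of UPF1-2, at medians of 0.56 and 0.49. DDIT4, an inhibitor of mTORC1 signalling, stood at 0.99 in UPF1-1 and at 1.24 in UPF1-2 recovery, both called, while CEBPB was lower by -1.59 and -1.33. Of 36 other ER chaperones, 7 were higher and 16 lower with UPF1-1 and 4 higher and 24 lower with UPF1-2, at medians of -0.18 and -0.47, with PPIB at -2.05 and -1.97. Of 29 degradation genes, 7 were higher and 12 lower with UPF1-1 and 7 higher and 17 lower with UPF1-2, at medians of -0.17 and -0.50. All 4 decay targets tested were lower with both isoforms, BLOC1S1 by -2.44 and -2.22, and of 10 sensors 3 were higher and 5 lower with UPF1-1 and 1 higher and 4 lower with UPF1-2 (3 higher without replicate 3). Of the 16 heat shock chaperones, 7 were higher and 5 lower with UPF1-1 and 10 higher and 4 lower with UPF1-2, at medians of -0.02 and 0.69. Without equal medians the IP values of all these lists shift upward by the medians given above. Without the block, the counts of these lists fell or stayed the same. Of the heat shock chaperones, 3 were then higher and 4 lower with UPF1-1, and 7 higher and 3 lower with UPF1-2. Of the other ER chaperones, 3 were higher and 12 lower with UPF1-1, and 2 higher and 14 lower with UPF1-2. The share of all genes at an unadjusted p under 0.05 (limma) also fell, from 76.4% to 57.7% with UPF1-1 and from 77.4% to 59.5% with UPF1-2.

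In the difference of recovery between the isoforms, 4.43% of all genes were higher with UPF1-1 and 6.27% lower. Of the lists, 7 of 36 other ER chaperones were higher with UPF1-1 and 1 was lower (GANAB, -0.47, named after its value was seen), with TMX1, a membrane thioredoxin, at 1.16 and HSPA13, an Hsp70 relative, at 1.07 (adjusted p = 0.015 for both). The ER co-chaperone DNAJC10 was at 0.62 (adjusted p = 0.018). Of 29 degradation genes 8 were higher and 1 was lower, with TRAM1 at 0.88 and the ATPase VCP at -0.59; without replicate 3, 4 were higher. Of the 16 heat shock chaperones none was higher and 6 were lower (9 without replicate 3), with HSP90AB1 at -0.91, HSPA1A at -0.75 and TRAP1 at -0.66. Of the PERK and ATF4 targets 2 were higher (PPP1R15B, 0.64, and CEBPG, 0.54) and 1 was lower (ASNS, -0.86), of the sensors 1 was lower (RTCB, -0.57), and no decay target passed. Without replicate 3, no other ER chaperone and 2 PERK and ATF4 targets were lower. None of these calls stands without the block, since no gene of the 11969 passed there (limma, 0.0%), with 7.07% at an unadjusted p under 0.05.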

How the data were processed

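Per the labels' protocols, RNA was isolated with RNeasy, depleted of ribosomal RNA with Ribo-Zero and made into libraries with TruSeq RNA. The submitters' processing notes name hg19 and the tools cutadapt, kallisto and sleuth; versions are not given in the sources used here. Per the file headers, the deposited columns are TPM of 15 libraries and, as the authors computed them, log2 fold changes between mean TPM, ratios of IP to input TPM, p-values and q-values of sleuth, sleuth effects in natural log units, and a mean natural log of each gene's estimated counts. The sleuth effect between the UPF1 lines runs opposite to the log2 column and was not printed.

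Here log2(TPM + 0.5) was taken of the deposited TPM, library medians over the kept genes were set equal, and a gene was kept with 1 TPM or more in 3 or more fitted libraries. The test was limma-trend (limma 3.58.1, R 4.3.3), run on the 9 libraries of total RNA (9325 genes) and on the 12 libraries of the UPF1 lines (11969 genes). Replicate number was a block for total RNA, and line with number for IP over total RNA. P-values are 2-sided, Benjamini-Hochberg adjusted over all fitted genes, with 0.05 as the threshold. The fit was tested on simulated data. These were drawn from the fit's own terms with independent noise, so they cannot show whether the block or the equal medians are right. The outcome is not quoted here. The pairing by number was checked on deviations from group means. Total RNA libraries of equal number had r of 0.70 to 0.95 (9 pairs), and those of the IP fit 0.57 to 0.91 (18 pairs). Between numbers 1 and 2, r was 0.64 to 0.80 in total RNA and 0.59 to 0.74 in the IP fit. Between 3 and either it was -0.89 to -0.72 in total RNA and -0.86 to -0.68 in the IP fit. Replicate 3 stood apart in every group, which by itself makes r positive between equal numbers. This check therefore cannot show pairing by number.

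The 10 mRNAs, the lists, the fit and its alternatives (normalization, pseudocount, filter, block and left-out replicates) were chosen with earlier results of these data known. Genes named from a list are up to 3 called genes per comparison with the largest change and a mean of at least 5 TPM; others are marked, and the 5 genes most alike in profile were taken by Pearson's r. Summaries used Python 3.11.15. Read totals were not given, so no counting interval is printed. Markers of blood cells (6 genes), fibroblasts (5) and hepatocytes (3) were looked up, but none was among the 12261 genes, so their levels could not be read. The values of 1 gene that the naming rule would give are not reported here.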

Additional observations from a re-analysis of the deposited data

Results flagged for a closer look

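In total RNA, the change against the GFP line differed between the isoforms, by the test of UPF1-1 over UPF1-2, for 5 of the 10 mRNAs. All 5 were higher in UPF1-1, where 5.49% of all genes were called higher. The log2 differences were 0.96 for XBP1, 0.88 for HERPUD1, 0.71 for MANF, 0.53 for PDIA4 and 0.38 for DNAJB9. In recovery, IP over total RNA differed between UPF1-1 and UPF1-2 by 0.93 for DNAJB9 and 0.58 for DNAJC3. Both were higher with UPF1-1, where 4.43% of all genes were called higher. These 7 tests did not pass without the replicate block.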

How the results depend on the processing

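The number of the 10 mRNAs called for UPF1-1 over GFP was 7, and it was 2 with no replicate block and 0 with neither the replicate block nor equal library medians. It was 5 among genes of at least 5 TPM, where HSPA5, DNAJB9 and DNAJC3 were not tested, and 5 to 8 when 1 replicate number was left out. For UPF1-2 over GFP it was 0, and 1 (HERPUD1) with upper quartiles equal and 1 among genes of at least 5 TPM. For UPF1-1 over UPF1-2 it was 5, and it was 0 with no replicate block, 3 with the replicate block but medians not equal, 0 with neither, and 2 to 4 when 1 replicate number was left out. For the difference in recovery it was 2, and 0 with no replicate block, 0 with medians not equal, 0 with neither, and 0 to 2 when 1 replicate number was left out. Shares of all genes also moved with the fit, read at an unadjusted p under 0.05. Without replicate 1, 2 and 3, UPF1-1 over GFP gave 7, 7 and 9 of the 10, beside 23.8%, 21.0% and 33.3% of all genes. UPF1-1 over UPF1-2 gave 7, 7 and 5, beside 26.3%, 17.7% and 26.2%. The difference in recovery gave 2, 3 and 2, beside 13.4%, 21.1% and 31.6%. The cause of these changes in number was not tested.

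Without equal medians, IP over total RNA turned to the other side of 0 for 9 mRNAs with each isoform, because the median gene itself was higher in IP. The values with UPF1-1 were 2.49 for XBP1, 1.44 for HERPUD1, 1.75 for DNAJB9, 0.79 for MANF, 0.083 for SDF2L1, 0.87 for HSPA5, 1.07 for PDIA4, 1.82 for HSP90B1 and 1.39 for CALR. With UPF1-2 they were 2.40 for XBP1, 1.38 for HERPUD1, 0.79 for DNAJB9, 0.55 for MANF, 0.35 for SDF2L1, 0.85 for HSPA5, 0.91 for PDIA4, 1.44 for HSP90B1 and 1.41 for CALR. XBP1 in IP also turned with a pseudocount of 1 TPM (0.13 with UPF1-1, 0.056 with UPF1-2) and, with UPF1-1, when 1 replicate number was left out (-0.17 to 0.070).

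The other changes of sign were of values near 0 that no fit called. CALR in UPF1-2 over GFP was at 0.017 with medians not equal, 0.00096 with upper quartiles equal and 0.017 among genes of at least 5 TPM, and DNAJC3 in UPF1-1 over UPF1-2 at -0.032 with upper quartiles equal. In the difference of recovery, HSPA5 was at 0.019 with medians not equal, 0.070 with upper quartiles equal and 0.0093 with a pseudocount of 1 TPM, and CALR at 0.027 with upper quartiles equal. With 1 replicate number left out, DNAJC3 ran from -0.040 to 0.14 in UPF1-1 over GFP, from -0.048 to 0.097 in UPF1-2 over GFP and from -0.077 to 0.080 in UPF1-1 over UPF1-2, HSP90B1 from -0.046 to 0.14 in UPF1-1 over UPF1-2, and CALR from -0.072 to 0.099 in UPF1-2 over GFP. In the difference of recovery the ranges were -0.019 to 0.065 for HERPUD1, -0.060 to 0.069 for HSPA5 and -0.091 to 0.0099 for CALR. Low levels limit DNAJB9 and HSPA5: for UPF1-1 over GFP their differences were 0.83 and 0.67 with a pseudocount of 0.1 TPM and 0.46 and 0.37 with 1 TPM.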
